A study of Arabidopsis thaliana with 8 samples.

Results

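Coding sequences (CDS) of 300 nt or less encode proteins of at most 99 residues, and Arabidopsis thaliana carries many of them. The deposited tables list 27205 loci with nuclear identifiers, and 2262 of these (8.31%) have a CDS of at most 300 nt. All 2262 were taken by length alone, with no measured value used in the choice. Their CDS lengths ran from 51 to 300 nt, with a median of 219 nt. The reads of the CDS were followed in 4 groups of 2 libraries each, all from wild-type Columbia-0 seedlings kept in darkness on MS medium until day 4. The groups were ribosome-protected RNA after 4 h of white light, ribosome-protected RNA in the dark, mRNA after 4 h of white light, and mRNA in the dark. Ribosome-protected RNA is what remains of a polysome extract after RNase I has digested the RNA outside ribosomes, recovered with SDS and phenol. The mRNA was purified from such seedlings with a kit and fragmented chemically. Whether repeats 1 and 2 were grown separately is not on the labels. The p-values therefore rest on the spread within these pairs of libraries, which may be technical.

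Short coding sequences include secreted peptide hormones, defensin-like peptides, subunits of the ribosome and of the mitochondrial membranes, and small regulators of growth. SAUR proteins, encoded by small auxin up RNAs, promote cell expansion and are known from the rapidly elongating hypocotyl of dark-grown seedlings. When such a seedling meets light, hypocotyl growth slows and the cotyledons open and green. The ratio of ribosome-protected to mRNA reads of a CDS is commonly read as the density of ribosomes along it, relative to the other loci of the same libraries. Fragmented mRNA gives more reads from a longer CDS, so the ratio is not a number of ribosomes per transcript.

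The 10 CDSs printed here come from members named below for their ratio or their light change. They were read from the RefSeq genome of build TAIR10.1, 5′ to 3′ on the coding strand, and each has the same CDS length as in the deposited tables. AT4G11211 (chr4:6836274-6836339, plus strand), AT5G21020 (chr5:7139023-7139151, plus strand) and AT4G34881 (chr4:16617892-16618071, plus strand) had few ribosome-protected reads for their mRNA. AT1G31835 (chr1:11423332-11423562, minus strand) and AT2G35750 (chr2:15029904-15030089, minus strand) had many. In these 5, all single-exon CDSs of proteins without a described function in the annotation, capitals mark the start and stop codons.
AT4G11211: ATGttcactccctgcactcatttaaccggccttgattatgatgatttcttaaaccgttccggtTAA
AT5G21020: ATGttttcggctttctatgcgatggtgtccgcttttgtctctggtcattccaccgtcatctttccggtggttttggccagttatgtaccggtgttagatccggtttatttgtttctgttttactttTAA
AT4G34881: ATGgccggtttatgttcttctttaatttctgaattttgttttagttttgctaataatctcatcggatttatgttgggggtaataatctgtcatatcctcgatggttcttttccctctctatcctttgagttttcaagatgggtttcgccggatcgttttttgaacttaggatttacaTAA
AT1G31835: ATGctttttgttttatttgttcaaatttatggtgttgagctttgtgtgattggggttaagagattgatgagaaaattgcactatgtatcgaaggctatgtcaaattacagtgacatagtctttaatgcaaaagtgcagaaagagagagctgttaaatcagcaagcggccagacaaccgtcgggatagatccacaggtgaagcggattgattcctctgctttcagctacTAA
AT2G35750: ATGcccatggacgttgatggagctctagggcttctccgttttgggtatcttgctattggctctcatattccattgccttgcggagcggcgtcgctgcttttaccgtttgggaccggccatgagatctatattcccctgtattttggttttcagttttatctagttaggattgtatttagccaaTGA
AGP21 (chr1:20648634-20648810, minus strand) and AGP13 (chr4:13317235-13317414, minus strand) encode arabinogalactan peptides, short cell-surface proteins that are heavily glycosylated on hydroxylated prolines. Capitals mark their proline codons, 4 in each.
AGP21: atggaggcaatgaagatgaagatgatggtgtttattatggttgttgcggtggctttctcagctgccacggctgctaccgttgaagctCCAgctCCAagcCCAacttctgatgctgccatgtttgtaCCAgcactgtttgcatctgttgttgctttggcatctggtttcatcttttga
AGP13: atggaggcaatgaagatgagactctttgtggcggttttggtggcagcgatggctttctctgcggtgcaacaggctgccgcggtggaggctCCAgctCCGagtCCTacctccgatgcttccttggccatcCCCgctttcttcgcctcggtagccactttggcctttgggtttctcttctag
LCR69 (chr2:528397-528885, plus strand, 2 coding exons) encodes a secreted defensin-like peptide, a class held together by disulphide bonds. Capitals mark its 8 cysteine codons.
LCR69: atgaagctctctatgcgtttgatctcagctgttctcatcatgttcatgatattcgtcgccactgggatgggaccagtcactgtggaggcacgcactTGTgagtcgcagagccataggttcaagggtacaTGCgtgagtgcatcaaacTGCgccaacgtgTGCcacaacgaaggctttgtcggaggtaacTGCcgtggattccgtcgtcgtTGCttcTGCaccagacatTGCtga
SAUR22 (chr5:5974691-5974963, minus strand) and SAUR23 (chr5:5976030-5976302, plus strand) are neighbours that fell together in light. Capitals mark the 19 of 273 bases at which each differs from the other.
SAUR22: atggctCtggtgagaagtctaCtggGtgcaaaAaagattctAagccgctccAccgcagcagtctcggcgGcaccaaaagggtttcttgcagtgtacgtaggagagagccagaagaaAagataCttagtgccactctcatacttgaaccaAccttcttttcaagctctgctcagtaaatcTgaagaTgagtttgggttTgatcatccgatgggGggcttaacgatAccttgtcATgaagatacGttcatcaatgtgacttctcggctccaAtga
SAUR23: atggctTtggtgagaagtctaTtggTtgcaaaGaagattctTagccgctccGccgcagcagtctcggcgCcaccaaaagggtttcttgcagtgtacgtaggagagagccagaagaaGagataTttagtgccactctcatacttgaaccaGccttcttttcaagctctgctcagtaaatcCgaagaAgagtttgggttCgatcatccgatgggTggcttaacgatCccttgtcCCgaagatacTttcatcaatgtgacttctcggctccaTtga

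CDS reads came to between 30997341 and 37245819 per mRNA library. In ribosome-protected RNA depth varied more, with 4617343 and 40972194 after light and 4843438 and 14974871 in the dark. The labelled tissue was checked on marker genes that are not short. PHYA, the photoreceptor that accumulates in darkness, had 520 and 338 CPM (the CDS reads scaled to the size of each library) in mRNA after light, against 1746 and 963 in the dark. LHCB1.3, a light-harvesting antenna protein, had 1644 and 2491 after light, against 69.8 and 496 in the dark, where the repeats lay far apart. PORA, which makes chlorophyllide in etiolated tissue, had 4.31 and 8.39 after light and 83.3 and 563 in the dark. The root markers PIN2, SCR and SHR and the stomatal markers SPCH and FAMA had reads in every library. SPCH was at 0.446 CPM in ribosome-protected dark repeat 1, where 3 reads correspond to 0.668 CPM. MUTE, also a stomatal marker, had no reads in that library and at most 1.72 CPM in the others. STM, of the shoot meristem, had reads in every library, at 4.71 to 17.3 CPM. WUS, also of the shoot meristem, had reads in 1 of 8. These are bulk samples of whole seedlings, in which fewer cells of a type and less RNA per cell cannot be told apart.

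Many short CDSs had no reads at all. Of the 2262, 1121 (49.6%) had 0 CDS reads in all 8 libraries, against 11.1% of the 24943 longer nuclear loci. The share without a read was 73.5% at up to 100 nt, 71.5% at over 100 and up to 150 nt, 56.6% at over 150 and up to 200 nt, 41.4% at over 200 and up to 250 nt and 37.1% at over 250 and up to 300 nt. It was 21.9% at over 300 and up to 600 nt and 2.21% above 2400 nt. A count of 0 says only that a level was under about 0.0713 to 0.709 CPM in a library, the level of 3 reads. The POLARIS peptide gene PLS (CDS of 111 nt) had a single read, in dark mRNA repeat 1, and the metallothionein gene MT1A (138 nt) had none.

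The unread CDSs were richer in cysteine than those with enough reads to pass the filter on low counts. The 679 unread members with a reference sequence of the same length had a median of 4.88% cysteine, and 42.3% of them encoded at least 6 cysteines. The 707 such members that passed the filter on low counts had a median of 1.45% cysteine, and 10.9% encoded at least 6. Of 252 defensin-like and other cysteine-rich peptides, 203 had no read and 15 passed the filter. Of 17 lipid transfer proteins, 13 had no read, whereas 32 of 35 cytosolic ribosomal proteins and 45 of 46 proteins of the mitochondrial respiratory chain and import had reads. Untranslated regions were missing on both sides from 959 members (42.4%), and 810 of these had no read; among longer nuclear loci 14.0% lacked both. No reference gene was found for 458 members, of which 419 had no read. The coding part was a single exon in 50.5% of the matched members and in 21.4% of the longer loci.

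**Figure D1:**
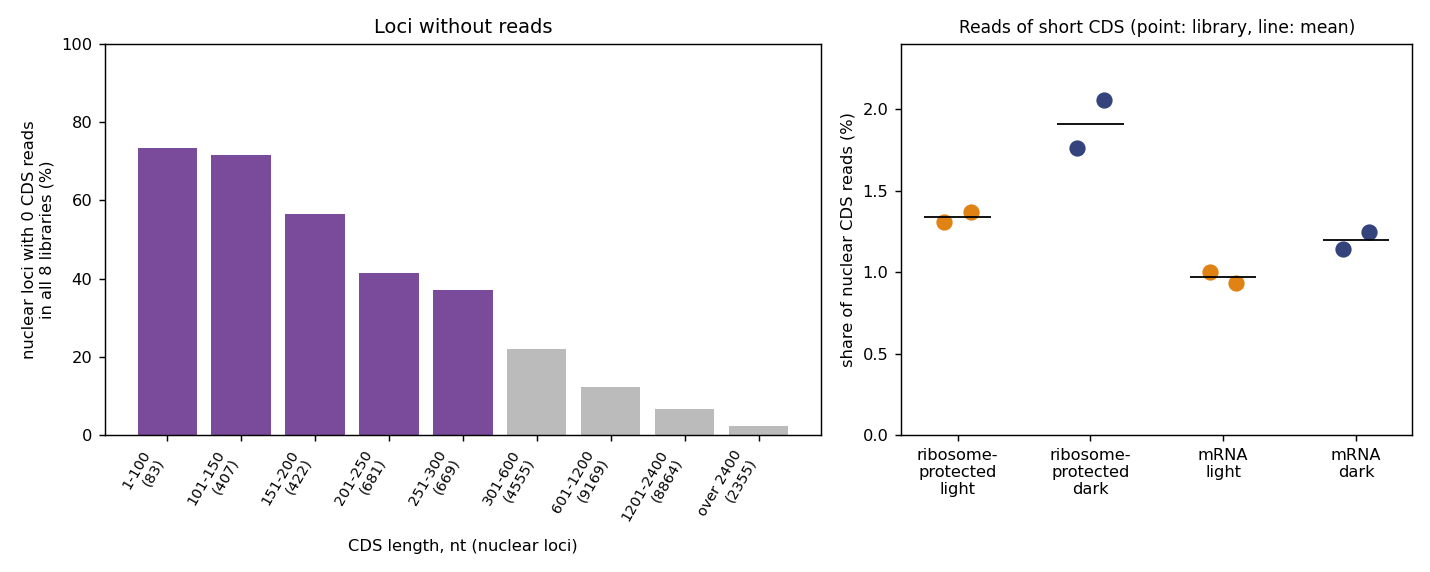
Left, share of nuclear loci with 0 CDS reads in all 8 libraries by CDS length (number of loci in brackets, short CDS in purple); right, share of all nuclear CDS reads that fell on CDSs of at most 300 nt, with 1 point per library and the mean as a line. The share without reads was 73.5% in the shortest class and 2.21% in the longest, and short CDSs took more of the ribosome-protected reads than of the mRNA reads.

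The members took a small part of the reads, and a larger part of the ribosome-protected reads than of the mRNA. They held 1.31% and 1.37% of nuclear CDS reads in ribosome-protected RNA after light and 1.76% and 2.06% in the dark. In mRNA they held 1.00% and 0.934% after light and 1.14% and 1.25% in the dark. In both kinds of RNA the light libraries were below the dark ones, with no overlap, and a test of 2 libraries against 2 cannot give an exact p below 0.333. The 10 most abundant members supplied between 24.1% and 33.9% of the members' reads per library.

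Per kb of CDS, the most abundant member over the 8 libraries was AGP21, at a mean of 2682 CPM per kb. RCI2A, a small hydrophobic membrane protein induced by cold and salt, followed at 2506, GASA1, a gibberellin-regulated cysteine-rich protein, at 2298, AGP12, another arabinogalactan peptide, at 2100.5, MT2B, a metal-binding metallothionein, at 1732, and ACBP6, which binds acyl-CoA in the cytosol, at 1485. The median over tested members was 18.3, and over the longer tested nuclear loci 12.2. GASA1 had 779 and 386 ribosome-protected CPM after light, against 1744 and 784 in the dark. Repeat 1 was about as far above repeat 2 as the dark was above the light. Likewise PSK4, a precursor of the growth peptide phytosulfokine, had 231 and 36.3 after light and 275 and 48.6 in the dark, so that the repeats lay further apart than the conditions. No call was made for either gene between light and dark.

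Within the transcripts of short CDSs, ribosome-protected reads lay mostly in the CDS. The CDS held 92.8% and 93.4% of the members' ribosome-protected reads after light and 86.7% and 91.9% in the dark, counted over CDS and both untranslated regions. It held 46.2% and 48.6% of their mRNA reads after light and 47.4% and 47.1% in the dark. Among the 1085 members with both untranslated regions, the CDS made up 36.4% of the annotated length, and the shares of reads were nearly the same as over all 2262. In longer nuclear loci the CDS held 98.1% and 98.4% of the ribosome-protected reads after light and 96.1% and 97.7% in the dark, and 80.4% to 81.7% of the mRNA reads. The 5′ untranslated regions of members held 5.26% to 7.96% of their ribosome-protected reads, against 1.32% to 2.35% in longer loci. Their part of the mRNA reads was larger too, at 13.5% to 14.2%, against 4.61% to 4.92% in longer loci. Over all 2262 members the CDS made up 51.6% of the annotated length, against 82.0% in longer loci. Extra ribosome occupancy of the 5′ untranslated regions of members was not tested. The least precise of the members' shares, 86.7% in ribosome-protected dark repeat 1, has a 95% Wilson interval of 86.5% to 86.9%, which covers counting error only.

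Of the 2262 members, 728 (32.2%) passed the filter on low counts and were tested, against 76.0% of longer nuclear loci. Medians and counts over the 728 describe only these better-read CDSs, not all short ones. Ribosome-protected per mRNA is given below as a log2 ratio of scaled reads, where 0 is about the median of all 19823 tested loci. After light the median of the 728 was 0.62 (0.34 and 0.78 in repeats 1 and 2), against 0.00 for longer nuclear loci. In the dark it was 0.81 (0.60 and 0.92), against -0.01. The ratio was above 0 in both repeats for 60.6% of members after light and 66.5% in the dark, against 39.1% and 38.8% of longer loci. The median without the filter was lower, at 0.30 after light and 0.43 in the dark over 1141 members with a read.

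Above 200 nt the median ratio was lower with each longer length class, at both times, and up to 200 nt there was no such order and a wide spread. After light the median was 0.75 at up to 100 nt (10 loci), -0.37 at over 100 and up to 150 nt (41 loci, with -0.64 and -0.04 in repeats 1 and 2), 0.66 at over 150 and up to 200 nt, 0.69 at over 200 and up to 250 nt and 0.57 at over 250 and up to 300 nt. It was 0.48 at over 300 and up to 600 nt, 0.12 at over 600 and up to 1200 nt, -0.17 at over 1200 and up to 2400 nt and -0.40 above 2400 nt. In the dark the median was 0.83 at up to 100 nt, 0.32 at over 100 and up to 150 nt, 0.86 at over 150 and up to 200 nt, 0.93 at over 200 and up to 250 nt and 0.74 at over 250 and up to 300 nt. It was 0.57 at over 300 and up to 600 nt, 0.11 at over 600 and up to 1200 nt, -0.17 at over 1200 and up to 2400 nt and -0.47 above 2400 nt. The interquartile range was 6.43, 5.75 and 2.29 log2 units after light and 3.98, 4.18 and 2.64 in the dark in the 3 classes up to 200 nt. In the classes up to 250 and up to 300 nt it was 0.80 and 0.93 after light and 0.89 and 0.95 in the dark. Abundant loci on both sides of the limit of 300 nt had ratios above 0. Just inside, at 300 nt, the potato-inhibitor-type protein UPI had 0.34 after light and 0.93 in the dark, AT5G18850 0.56 and 0.48, and TOM22-V, of the mitochondrial import receptor complex, 1.22 and 1.46. Just outside, at 303 nt and 1 codon longer, the thylakoid phosphoprotein AT3G47070 had 1.29 after light and 1.35 in the dark, and SDH7, a succinate dehydrogenase subunit, had 0.49 and 0.66.

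**Figure D2:**
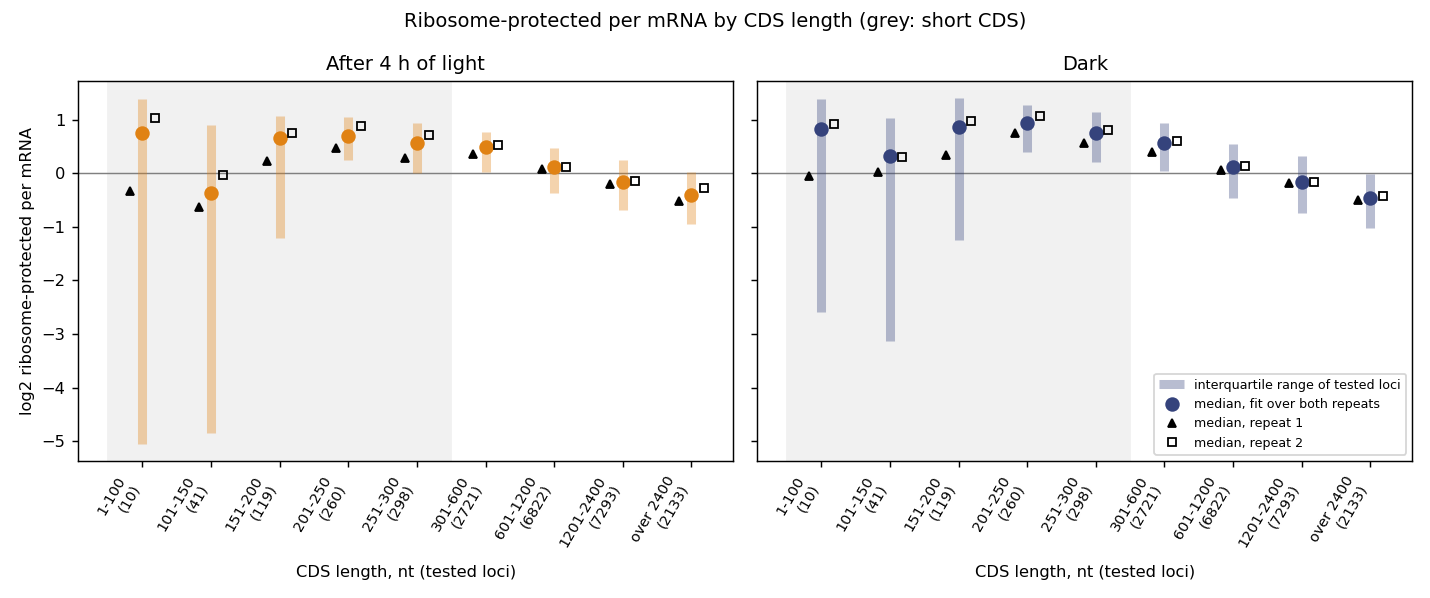
Log2 ribosome-protected per mRNA by CDS length class after light (left) and in the dark (right), with the median of the fit, the medians of the 2 repeats and the interquartile range of tested loci as a bar; the number of tested loci is in brackets and short CDS have a grey ground. In the dark 4 of the 5 classes up to 300 nt had medians between 0.74 and 0.93; the class over 100 and up to 150 nt was lower, at 0.32 in the dark and -0.37 after light, and the bars were longest up to 200 nt.

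Single CDSs were called by edgeR's quasi-likelihood test at a Benjamini-Hochberg adjusted p under 0.05 over all 19823 tested loci. After light 6 members (0.82%) had a higher ratio of ribosome-protected to mRNA than 0 on this scale, against 0.101% of all tested loci, and 20 (2.75%) had a lower one, against 2.36%. In the dark 33 members (4.53%) were higher, against 0.787%, and 21 (2.88%) were lower, against 3.87%. DESeq2 called more, and after light more higher than lower: 69 (9.49%) were higher, against 2.27% of all loci it tested, and 42 (5.78%) lower, against 6.07%. In the dark it called 133 (19.4%) higher, against 5.11%, and 37 (5.40%) lower, against 8.46%. By edgeR, all 6 of the higher calls after light were among the 33 of the dark, and 17 were lower in both. After light, 12 lower calls were made without ribosome-protected dark repeat 1 or repeat 2, and none when any of the other 6 libraries was left out. In the dark none was made when any of the 8 libraries was left out.

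CDSs of unknown function supplied 13 of the 20 lower calls after light and 13 of the 21 in the dark, and 279 of the 728 tested members are on this list. Among the 1642 longer tested loci of the list, 38 were called lower after light and 62 in the dark. AT4G34881 had 2.13 and 1.39 ribosome-protected CPM after light, against 67.1 and 34.1 mRNA CPM. Its log2 ratio was -4.94 ± 0.71 (edgeR, with the SE of the fit, 2 libraries in each group, adjusted p = 0.032). In the dark it had 16.5 and 5.06, against 181 and 222 in mRNA, and -4.27 ± 0.66 (adjusted p = 0.033). Ribosome-protected values lay far below mRNA in every library of this gene, which overlaps XDH1 on the opposite strand, and the sources do not say whether reads were counted by strand. AT5G21020 showed the same order without any overlapping locus, at 1.65 and 1.96 after light, against 66.1 and 41.3 in mRNA, and 8.47 and 3.51 in the dark, against 116 and 148 in mRNA. Its log2 ratio by edgeR was -4.86 ± 0.52 after light (adjusted p = 0.028) and -4.52 ± 0.50 in the dark (adjusted p = 0.027).

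The 21-residue CDS AT4G11211 had 0 and 4 ribosome-protected reads after light and 6 and 5 in the dark, against 367 and 649 mRNA reads after light and 516 and 432 in the dark. It was called lower at both times, with a log2 ratio of -4.20 ± 0.65 in the dark (edgeR, adjusted p = 0.033), and the fitted value after light rests on 4 reads in a single library. AT1G58235, of unknown function, had 2.45 and 0.632 CPM in the dark, against 25.4 and 17.6 in mRNA (-4.01 ± 0.61, edgeR adjusted p = 0.033). AT1G35516, annotated as a MYB-like transcription factor and overlapping another locus on its strand, had 5.12 and 2.74 in the dark, against 23.7 and 31.6 in mRNA (-2.87 ± 0.37, edgeR adjusted p = 0.027). The other lower calls included AT3G13403, the only defensin-like one, at a mean of 0.5 CPM over the libraries; it was named after its value was seen.

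Among the higher calls, AT1G31835 had the largest ratio in the dark. It had 111 and 19.9 ribosome-protected CPM after light, against 1.90 and 2.24 in mRNA, without a call. In the dark it had 153 and 37.5, against 1.69 and 1.62 in mRNA, and a log2 ratio of 5.83 ± 1.07 (edgeR, adjusted p = 0.040). Repeat 1 was well above repeat 2 in ribosome-protected RNA at both times. AT2G35750 had 43.2 and 42.8 after light, against 1.81 and 5.62 in mRNA, and 116 and 57.8 in the dark, against 2.37 and 7.54 in mRNA (4.12 ± 0.78 in the dark, edgeR adjusted p = 0.044). AT1G72645 had 21.6 and 31.2 in the dark, against 2.14 and 2.66 in mRNA (3.46 ± 0.48, edgeR adjusted p = 0.029). These 3 genes exceeded all other higher calls, which ran from 1.06 to 1.91.

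Better known members were among the others, together with CDSs of unknown function. AGP21 had 656 and 1112 ribosome-protected CPM in the dark, against 222 and 249 in mRNA (1.91 ± 0.38, edgeR adjusted p = 0.045). LCR69 had 346.3 and 312 after light, against 143 and 130 in mRNA (1.27 ± 0.24, edgeR adjusted p = 0.049), and 242 and 242 in the dark, against 81.3 and 84.7 in mRNA (1.54 ± 0.24, edgeR adjusted p = 0.033). AT3G18280, of the lipid-transfer protein family, had 65.0 and 59.9 after light, against 25.4 and 22.4 in mRNA, and 85.1 and 88.8 in the dark, against 26.0 and 24.0 in mRNA. Its log2 ratio was 1.38 ± 0.19 after light (edgeR, adjusted p = 0.032) and 1.80 ± 0.20 in the dark (edgeR, adjusted p = 0.027). AT5G24570 and AT1G22885, of unknown function, were called higher after light at 1.27 ± 0.20 and 1.33 ± 0.24. AT4G24920, a gamma subunit of the SEC61 channel in the endoplasmic reticulum, was called in the dark at 1.44 ± 0.28; an identical protein is encoded elsewhere and another locus overlaps it, so its reads are uncertain.

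Gene lists were sorted by the words of the reference annotation. The 30 tested cytosolic ribosomal proteins had a median ratio of 1.09 after light and 1.21 in the dark, with all 30 above 0 at both times and no call. The 287 longer tested loci of this list had medians of 0.60 and 0.50. Ribosomal proteins of plastids or mitochondria whose annotation names no organelle could also fall on it. For RS27A, a protein of the small ribosomal subunit, there were 76.8 and 182 ribosome-protected CPM after light, against 51.2 and 68.9 in mRNA, and 88.0 and 178 in the dark, against 42.1 and 62.9 in mRNA. The 42 tested proteins of the mitochondrial respiratory chain and import had medians of 0.89 after light and 1.09 in the dark. Of these, 37 and 38 were above 0. There were 3 higher calls in the dark, where 0.787% of all tested loci were called higher. Longer loci of that list had 0.43 and 0.40. Longer loci were not lower in every list. The 11 tested short arabinogalactan peptides had medians of 0.49 after light and 1.26 in the dark. The 32 longer loci of their list had 0.96 and 1.36. For lipid transfer proteins, 55 longer loci had 1.05 and 1.26, against 1.42 and 1.86 over 2 short ones.

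Small RNA-binding proteins and RNA polymerase subunits had medians of 0.75 after light and 1.06 in the dark over 17 tested. Their 127 longer loci had 0.12 and -0.04. Of the 17, 1 and 4 were called higher, against 0.101% and 0.787% of all tested loci. The 8 cold- and salt-responsive proteins had 0.98 and 1.44, with all 8 above 0 at both times and no call. RCI2A had 579 and 425 ribosome-protected CPM after light, against 313 and 177 in mRNA, and 792 and 556 in the dark, against 304 and 161 in mRNA. The 6 tested metallothioneins had 0.97 and 1.05. MT2A, a metallothionein, had 180 and 134 after light, against 88.7 and 60.2 in mRNA, and 212 and 274 in the dark, against 103 and 123 in mRNA. The 15 defensin-like peptides had medians of 1.27 and 1.49, with 1 higher call after light, and 2 higher and 1 lower in the dark. The 279 tested CDSs of unknown function had medians of 0.33 and 0.57, lower than any other list with more than 10 tested members, and ranged from -9.89 to 5.83 in the dark.

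**Figure D3:**
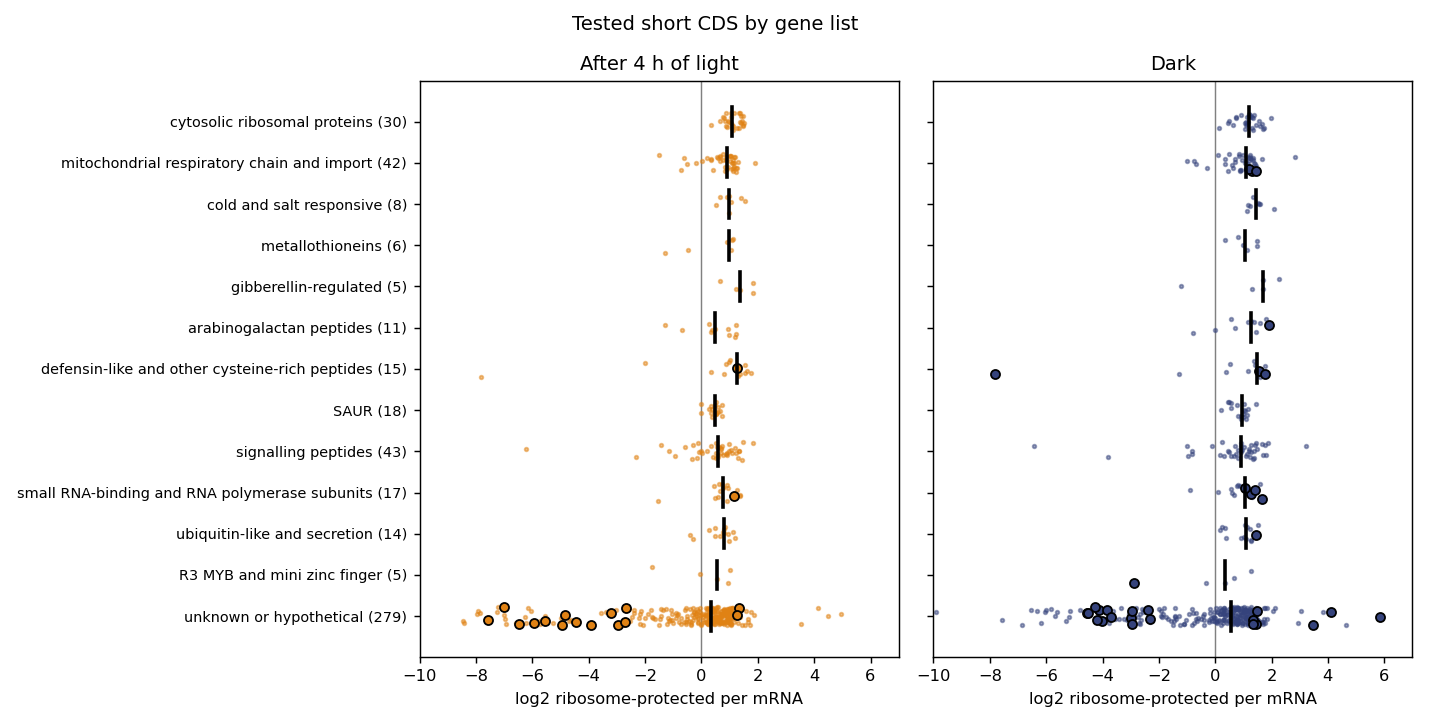
Log2 ribosome-protected per mRNA of tested short CDSs by gene list after light (left) and in the dark (right), with 1 point per CDS, the list median as a black line, called CDSs outlined in black and the number tested in brackets. Cytosolic ribosomal proteins lay wholly above 0, whereas CDSs of unknown function spread from -9.89 to 5.83 in the dark.

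In light, more short CDSs fell than rose. In mRNA 10 members (1.37%) rose, against 3.34% of all tested loci, and 22 (3.02%) fell, against 1.44%. In ribosome-protected RNA 8 (1.10%) rose, against 4.71%, and 29 (3.98%) fell, against 2.12%. The 22 that fell in mRNA were all among the 29 that fell in ribosome-protected RNA, and 7 of the 10 and of the 8 rose in both. The median change of the 728 was -0.06 in mRNA and -0.24 in ribosome-protected RNA, against 0.01 and -0.03 over all tested loci. In ribosome-protected RNA 22.7% of members were higher after light in both repeats and 47.7% lower in both, against 38.0% and 38.7% of longer loci. These medians depended on single libraries and on the filter. In ribosome-protected RNA the median was 0.00 without dark repeat 2 of that RNA, -0.49 without its light repeat 2 and 0.00 without the filter, and in mRNA it was 0.0025 without mRNA dark repeat 2. Calls also depended on single libraries. In mRNA there were 0 without light repeat 2 or dark repeat 1 of the mRNA, 1 without light repeat 1 or dark repeat 2, and 18 or 19 without any of the ribosome-protected libraries. In ribosome-protected RNA the calls came to 10 and 5 without light repeats 1 and 2, to 8 and 6 without dark repeats 1 and 2, to 24 without either light mRNA library and to 34 without either dark mRNA library. DESeq2 made 23 higher and 47 lower calls in mRNA (3% and 6.13%, against 6.46% and 4.39% of all loci it tested), and 16 higher and 59 lower in ribosome-protected RNA (2.34% and 8.61%, against 8.43% and 5.29%).

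The SAUR genes supplied 12 of the 22 falls in mRNA and 14 of the 29 in ribosome-protected RNA. All 18 SAUR members were tested. Their median change was -1.89 in mRNA and -2.53 in ribosome-protected RNA, and 17 of the 18 were below 0 in each. The fall was not limited to short CDSs. The 65 longer tested loci annotated as SAUR or auxin-responsive had medians of -0.75 and -0.98. Of these, 10 fell in mRNA and 15 in ribosome-protected RNA, where 1.44% and 2.12% of all tested loci fell. SAUR23 had 1.14 and 2.55 mRNA CPM after light, against 12.3 and 19.9 in the dark (-3.11 ± 0.49, SE of the fit, n = 2 libraries per group, edgeR adjusted p = 0.022). SAUR22 had 1.65 and 4.18 ribosome-protected CPM after light, against 32.7 and 34.995 in the dark (-3.42 ± 0.50, edgeR adjusted p = 0.014). AT4G13790, another SAUR gene, fell the most: it had 1 and 7 ribosome-protected reads after light, against 34 and 192 in the dark, and a log2 change of -5.61 ± 0.51 (edgeR, adjusted p = 0.0043). The light and dark libraries did not overlap for any of these genes. AT4G38840 went the other way, with 18.9 and 48.9 ribosome-protected CPM after light, against 9.80 and 8.08 in the dark, and was not called; it was picked out after its value was seen.

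Of the 7 SAUR members on chromosome 5, 6 lie in a cluster, from SAUR19 to SAUR24, and AT5G66260 lies far from them. The 4 of the cluster with a CDS of 273 nt were compared base by base: SAUR19 and SAUR24 share 95.2%, SAUR22 and SAUR23, the sequences printed above, 93.0%, and the least alike pair 89.7%. No source used here says how the authors treated reads that match several loci, so levels of single genes in this cluster are uncertain. Summed over the 18 genes, there were 57.2 and 119 ribosome-protected CPM after light, against 278 and 303.2 in the dark, and 57.3 and 76.7 mRNA CPM after light, against 152 and 170 in the dark. Leaving out any mRNA library ended all 12 calls in mRNA, whereas the median stayed between -2.11 and -1.70. In ribosome-protected RNA between 3 and 13 SAUR genes were called with a library left out, and the median stayed between -3.12 and -2.33.

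Other regulators of growth fell as well. Of 4 tested PRE and other small helix-loop-helix proteins, 2 fell in mRNA and 3 in ribosome-protected RNA. Among all tested loci, 1.44% and 2.12% fell. Among the 96 longer tested loci of this list, 3 and 5 fell, with median changes of -0.07 and -0.03. PRE1, which promotes cell elongation in response to gibberellin, had 1.18 and 2.61 ribosome-protected CPM after light, against 11.6 and 15.7 in the dark (-2.73 ± 0.40, edgeR adjusted p = 0.014). Its mRNA had 1.49 and 1.38 after light, against 5.81 and 6.94 in the dark (-2.15 ± 0.38, edgeR adjusted p = 0.032). KDR, a relative that restrains light signalling, had 14.4 and 23.1 after light, against 57.7 and 91.5 in the dark (-1.98 ± 0.35, edgeR adjusted p = 0.024), and its mRNA, with 12.9 and 12.9 after light against 33.1 and 44.7 in the dark, was not called.

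Of 43 tested signalling peptide genes, 3 fell in both kinds of RNA and none rose. Over all tested loci 1.44% fell in mRNA and 2.12% in ribosome-protected RNA. RGF6, a precursor of secreted root meristem growth factor peptides, had 25.7 and 17.0 ribosome-protected CPM after light, against 168 and 137 in the dark (-2.85 ± 0.29, edgeR adjusted p = 0.0054). The other 2 were RTFL13 and RTFL16, named because they complete this count; they belong to the ROTUNDIFOLIA-like peptides, which affect organ shape when overproduced. Among 11 tested arabinogalactan peptides, AGP13 fell in both and AGP14 in ribosome-protected RNA alone. AGP13 had 0.945 and 3.17 ribosome-protected CPM after light, against 39.0 and 67.7 in the dark (-4.51 ± 0.66, edgeR adjusted p = 0.014), and 0.761 and 1.60 mRNA CPM after light, against 15.1 and 24.3 in the dark (-4.05 ± 0.64, edgeR adjusted p = 0.023). AGP21, the most abundant member per kb of CDS, was not called, with 458 and 630 ribosome-protected CPM after light and 656 and 1112 in the dark.

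A further 3 CDSs fell strongly whose function is not given here. AT5G02580 had 1.65 and 2.16 ribosome-protected CPM after light, against 35.2 and 57.8 in the dark (-4.56 ± 0.39, edgeR adjusted p = 0.0043), and 1.74 and 1.60 mRNA CPM after light, against 23.1 and 33.96 in the dark (-4.09 ± 0.37, edgeR adjusted p = 0.0065). AT5G15265 had 0.472 and 1.66 ribosome-protected CPM after light, against 17.4 and 14.6 in the dark (-3.66 ± 0.46, edgeR adjusted p = 0.0093). AT3G17580 had 0.603 and 0.810 mRNA CPM after light, against 4.98 and 6.25 in the dark (-2.98 ± 0.42, edgeR adjusted p = 0.016). AT4G09890, annotated as a Mediator subunit of RNA polymerase II transcription, fell by less, with 30.2 and 32.0 ribosome-protected CPM after light, against 71.5 and 74.8 in the dark (-1.23 ± 0.19, edgeR adjusted p = 0.017).

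**Figure D4:**
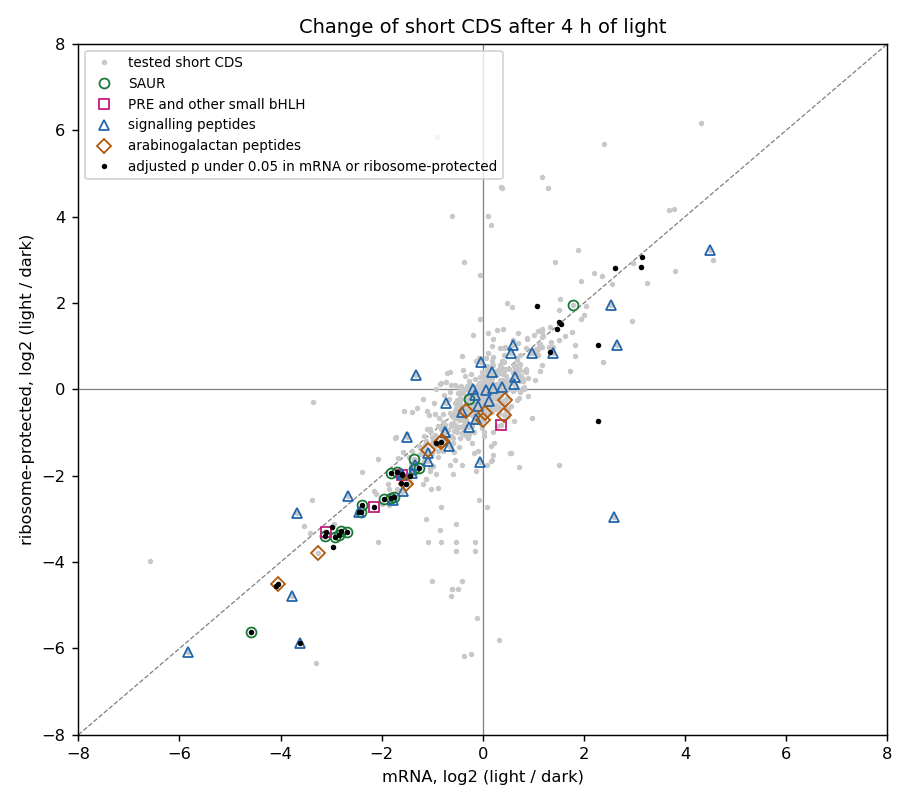
Log2 change after 4 h of light in ribosome-protected RNA (vertical) against that in mRNA (horizontal) for tested short CDSs, with 4 gene lists in open symbols, called CDSs in black and equal change as a dashed line; 2 CDSs lie beyond the axes. SAUR genes sit at the lower left, with 17 of 18 below 0 on each axis.

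The rises were scattered over genes of several kinds. AT5G38980, of unknown function, had 20.1 and 39.8 ribosome-protected CPM after light, against 2.67 and 4.29 in the dark (3.07 ± 0.52, edgeR adjusted p = 0.021), and its mRNA rose by 3.15 ± 0.51 on the log2 scale (edgeR, adjusted p = 0.024). AT4G33660, which carries a cysteine-rich transmembrane module found in stress tolerance proteins, had 29.1 and 27.9 after light, against 6.68 and 1.83 in the dark (2.84 ± 0.60, edgeR adjusted p = 0.041). AT2G43530, a knottin-like protein, had 14.6 and 19.2 after light, against 2.00 and 2.74 in the dark (2.81 ± 0.47, edgeR adjusted p = 0.021). Light and dark libraries did not overlap for these 3 genes, in ribosome-protected RNA or in mRNA. TOM5, a small subunit of the mitochondrial protein import receptor, had 42.8 and 64.7 after light, against 14.0 and 22.4 in the dark (1.55 ± 0.32, edgeR adjusted p = 0.038); a locus overlaps it on the opposite strand. AT5G43150 had 5.91 and 7.88 after light, against 2.23 and 1.55 in the dark (1.93 ± 0.38, edgeR adjusted p = 0.032).

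Several genes known from stress or development did not pass the test. KIN2, induced by cold and abscisic acid, had 39.2 and 23.5 ribosome-protected CPM after light, against 6.68 and 13.1 in the dark, without overlap. CPC, a single-repeat MYB protein that promotes root hair fate, had 2.60 and 2.19 after light, against 1.11 and 1.26 in the dark. ETC1, a related MYB protein, had 0.236 and 1.21 after light and 0.223 and 3.02 in the dark, so its libraries overlapped. MT2A and RCI2A, given above, also passed no test.

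**Figure D5:**
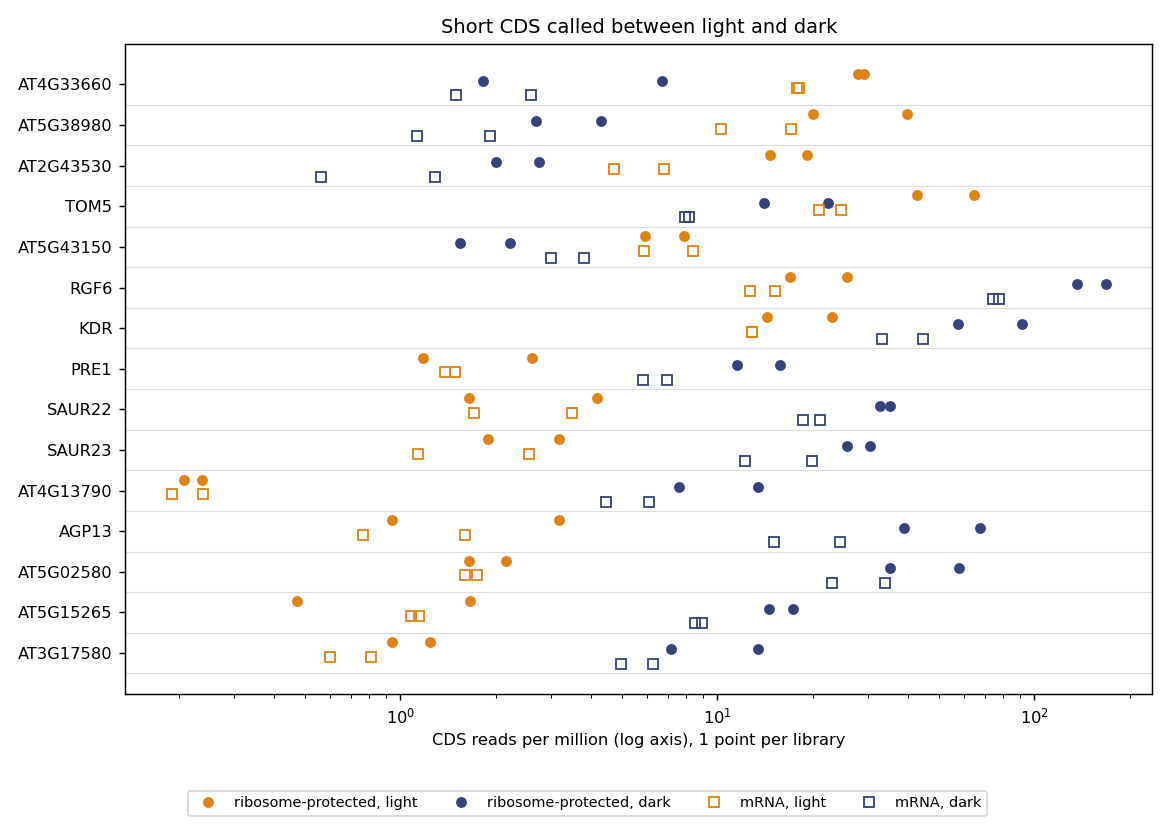
CDS reads in CPM (log axis) in each of the 8 libraries for 15 short CDSs called between light and dark, with ribosome-protected RNA as filled circles, mRNA as open squares, light in orange and dark in blue. The upper 5 genes rose and the lower 10 fell, and no light point of ribosome-protected RNA overlaps the dark points of the same gene.

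For a change in light of the ratio of ribosome-protected to mRNA, no member passed edgeR's test and 1 passed that of DESeq2. The edgeR quasi-likelihood test called 0 of 728 members and 0 of all 19823 tested loci (0.0%) at an adjusted p under 0.05, and 10 members and 261 loci had an unadjusted p under 0.05. DESeq2 called 1 member and 15 loci. That member was AT1G72645, of unknown function, with 11.3 and 20.1 ribosome-protected CPM after light, against 21.6 and 31.2 in the dark, while its mRNA had 7.64 and 15.6 after light, against 2.14 and 2.66 in the dark. Its mRNA rose by 2.27 ± 0.46 on the log2 scale (edgeR, adjusted p = 0.046). The ratio changed by -3.004 ± 0.64, with an adjusted p of 1.00 by edgeR and 0.0487 by DESeq2. Over all 728 members the median change of the ratio was -0.23, against -0.07 over all tested loci, and it was below 0 in both repeats for 45.9% of members and 37.6% of longer loci. Without ribosome-protected dark repeat 2 that median was 0.07.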

How the data were processed

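The 8 libraries measured mRNA and ribosome-protected RNA, light and dark, in 2 deposited tables with 1 row per locus. The authors deposited read counts per CDS and per untranslated region, region lengths in nt, and RPKM values; per the file headers the counts are not normalised. The deposited CDS RPKM matched count, length and the library's total over the 3 regions within 0.1% for every locus checked. Loci with few or no CDS reads in a library were left out of that check. The 16 columns of RPKM of untranslated regions were not used. Reads were placed on TAIR 10, per the submitters' processing notes. For the aligner, strand and multiple matches, settings were not given in the sources used here.

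Loci were grouped by the labels. Counts of all loci were fitted together in R 4.3.3 with edgeR 4.0.16: TMM scaling, filterByExpr, glmQLFit with 1 mean per group, glmQLFTest for 5 contrasts, two-sided, with Benjamini-Hochberg adjustment over the 19823 loci that passed the filter and a threshold of 0.05. CPM values use TMM-scaled CDS totals. The code of the fit was also run on simulated counts. Those libraries were independent and less variable than the real ones, so that run does not show how well the fit performs here. Fold changes and ratios carry an SE of the fit (n = 2 libraries per group). It is the absolute log2 value divided by the square root of the quasi-likelihood F statistic. The spread behind it was estimated from all 8 libraries together, not from the 2 of each group.

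Names, CDS models and overlaps came from RefSeq on build TAIR10.1, in which 1804 members were found by locus identifier and 1749 had the deposited CDS length; 70 members overlapped another listed locus on the same strand, 316 on the opposite strand, and 41 shared an identical protein. Gene lists were made by words in the annotation. Named members are the called ones with the same sign in both repeats, at or above the median level, the 4 largest per direction and contrast; from each list the most abundant per kb and the smallest adjusted p; 10 fixed genes; and 3 on each side of 300 nt, of which 1 is not reported here. The members and lists were chosen with earlier results of these data known. Repeat numbers are shared by all groups, but the labels tie them to no batch, so the main fit has no block. Alternatives were DESeq2 1.42.0, DESeq2 size factors, no filter, a replicate block, each library left out, the 4 libraries of a contrast, a limit of 200 nt, and members free of overlaps and identical proteins.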

Additional observations from a re-analysis of the deposited data

How the results depend on the processing

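The counts of members called depended on the fit. With the repeat number as a replicate block light against dark gave 193 calls in mRNA (79 higher, 10.9%, against 19.4% of all tested loci, and 114 lower, 15.7%, against 14.2%). In ribosome-protected RNA it gave 171 (47 higher, 6.46%, against 17.3%, and 124 lower, 17.0%, against 14.6%), and a median change of -0.22. For the ratio after light it gave 363 (272 higher, 37.4%, against 14.2%, and 91 lower, 12.5%, against 18.4%), for the ratio in the dark 418 (334 higher, 45.9%, against 19.2%, and 84 lower, 11.5%, against 21.1%), and 0 for its light change. Without the block the counts were 32, 37, 26, 54 and 0, with 6 higher and 20 lower for the ratio after light. Same-numbered libraries deviated together in all 6 pairs of groups (r between 0.58 and 0.81 over loci), and the biological coefficient of variation was 0.17 with the block and 0.39 without it. The labels tie the numbers to no batch, so whether a shared batch lies behind them was not tested. DESeq2 made 70, 75, 111, 170 and 1 calls in that order, 69 of the 111 after light higher and 42 lower. Only the 4 libraries of a contrast gave 0 in mRNA, 18 in ribosome-protected RNA, and 0 for the ratio after light and in the dark. A limit of 200 nt left 4, 6, 9 and 12 calls in the same order, the light change aside, among 170 tested, and a median change of ribosome-protected RNA of -0.31. Members free of overlaps and identical proteins had 16 calls for the ratio after light and 31 in the dark, of 501 tested.

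DESeq2 size factors moved the medians to -0.14 in mRNA and -0.30 in ribosome-protected RNA, where the median of all loci was at -0.07 and -0.09. Without the filter the medians were 0.00 for ribosome-protected RNA, and 0.30 and 0.43 for the ratio after light and in the dark, over 1141 members. With a library left out, calls ranged from 0 to 19 in mRNA, from 5 to 34 in ribosome-protected RNA, from 0 to 12 for the ratio after light, and from 0 to 0 for the ratio in the dark and its light change. The medians ranged from -0.15 to 0.0025 in mRNA, from -0.49 to 0.00 in ribosome-protected RNA, from -0.50 to 0.068 for the light change of the ratio, from 0.27 to 0.71 for the ratio after light and from 0.45 to 0.88 in the dark; the cause was not tested. None of the named changes reversed. In most fits with a library left out, a named change was no longer past the threshold. The named changes include the light change of the AT1G72645 ratio, which was not past it in the main fit.

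The other medians over members moved by less than the spread between repeats, as did the CDS share of reads over members with both untranslated regions. No alternative was run for the shares of unread loci, of cysteine and of library reads. As for depth, 3 reads correspond to 0.709 CPM in ribosome-protected light repeat 1 and to 0.089 in repeat 2.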

Other observations

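Sequence features that did not enter the choice of members were compared between tested short and longer CDSs. An A or G stood 3 bases before the start codon in 79.0% of 687 tested members and in 74.4% of 17664 longer tested loci, and a G followed the start codon in 53.9% and 58.3%. Lysine and arginine made up a median of 12.7% of residues in tested members and 11.7% in longer loci, and the median GC content of the CDS was 46.2% and 44.4%. The 18 members with a lower ribosome-protected per mRNA ratio in the dark and a sequence of the same length had a median GC content of 41.3% and 8.21% lysine and arginine, whereas the 33 with a higher ratio had 46.2% and 12.9%. No test was made of these values.

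Gibberellin-regulated members summed to 783 and 391 ribosome-protected CPM after light and to 1749 and 790 in the dark, mostly from GASA1. Lipid transfer proteins, of which 2 of 17 were tested, summed to 87.9 and 106 after light and to 96.9 and 129 in the dark. The 6 transposon-like members had 0 ribosome-protected reads in every library.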
